A study of Arabidopsis thaliana with 24 samples.

Results

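Roots of Arabidopsis thaliana Col-0 after 24 h of genotoxic treatment were compared with roots after 12 h of it. The comparison rests on 4 of the 24 arrays of the series, 2 at each time, taken by their labelled tissue and time. All plants of the series were 16 days old when the medium received 1.5 µg/ml bleomycin, an agent that cuts DNA strands, and 22 µg/ml mitomycin, an agent that links the strands to each other. Shoots and roots were then sampled at 0.5, 1, 3, 6, 12 and 24 h on Affymetrix ATH1 arrays, in which a set of short probes gives 1 signal for a transcript. The treatment began 3 h after lights on in a light period of 16 h. The roots of 12 h were therefore taken in the evening, 15 h after lights on, and those of 24 h the next morning, 3 h after lights on. Length of treatment and hour of day cannot be told apart between them. The roots of 0.5 h, taken 3.5 h after lights on, served as an early time nearly matched to 24 h in the hour of day. Untreated plants were not analysed here. No label states that both arrays of a group had separate cultures, and the p-values then measure the spread between these samples alone, which may be technical.

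In plants, breaks and crosslinks in DNA switch on genes of repair and of recombination and hold back cell division, and in roots the dividing cells of the tip are the most exposed. Roots also take up iron and other metals, enlarge by loosening their walls with expansins and related enzymes, and attach glucose or glutathione to phenolic and foreign compounds, which makes them easier to store or remove. Many of these genes follow the hour of day in untreated plants, since the circadian clock and the supply of sugar from the leaves both set root transcription.

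The 4 arrays had median signals of 45.95 to 47.17, and both arrays of a time correlated closely across probe sets (r = 0.9886 and 0.99 on the log2 scale). The arrays of 12 h were less even in one respect. Of 13286 genes, 80 (0.602%) stood at least 2-fold higher in the first 12 h array than in the second, and none stood at least 2-fold lower. At 24 h these counts were 7 and 14 (0.0527% and 0.105%). Among the 20 measured genes of a defence list, 5 were among those higher in the first 12 h array, and defence results are given without that array too. Other lists held such genes as well. They were 3 of 8 calmodulin-like genes, 3 of 22 beta-glucosidases, 2 of 13 low oxygen genes, 2 of 24 cytochromes P450, 1 of 11 subtilases and 1 of 52 UDP-glucosyltransferases. Counts for the calmodulin-like, beta-glucosidase and low oxygen lists are given with all arrays only. In whole roots, fewer cells of a type and less RNA per cell cannot be told apart.

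Few transcripts differed between the evening and the next morning. Of 22746 probe sets, 372 (1.64%) passed an adjusted p of 0.05 in limma, 228 higher at 24 h (1.0%) and 144 lower (0.633%). The fold among them ran from 1.28 to 22.4 with a median of 1.74, and 113 changed at least 2-fold, 73 up and 40 down. A gene could be named for 174 of 13286 genes with a called probe set (1.31%), 107 higher (0.805%) and 67 lower (0.504%), while 197 called probe sets were unnamed here or shared by several genes. The median change of all probe sets was -0.0017 with a median standard error of 0.139. The total fell to 187 without the first 12 h array and to 164 without the first 24 h array, and was 293 and 335 without the second array of either time. All changes below are differences of log2(signal + 16) with their standard errors, from groups of 2 arrays, a scale on which changes of dim transcripts are understated.

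**Figure D1:**
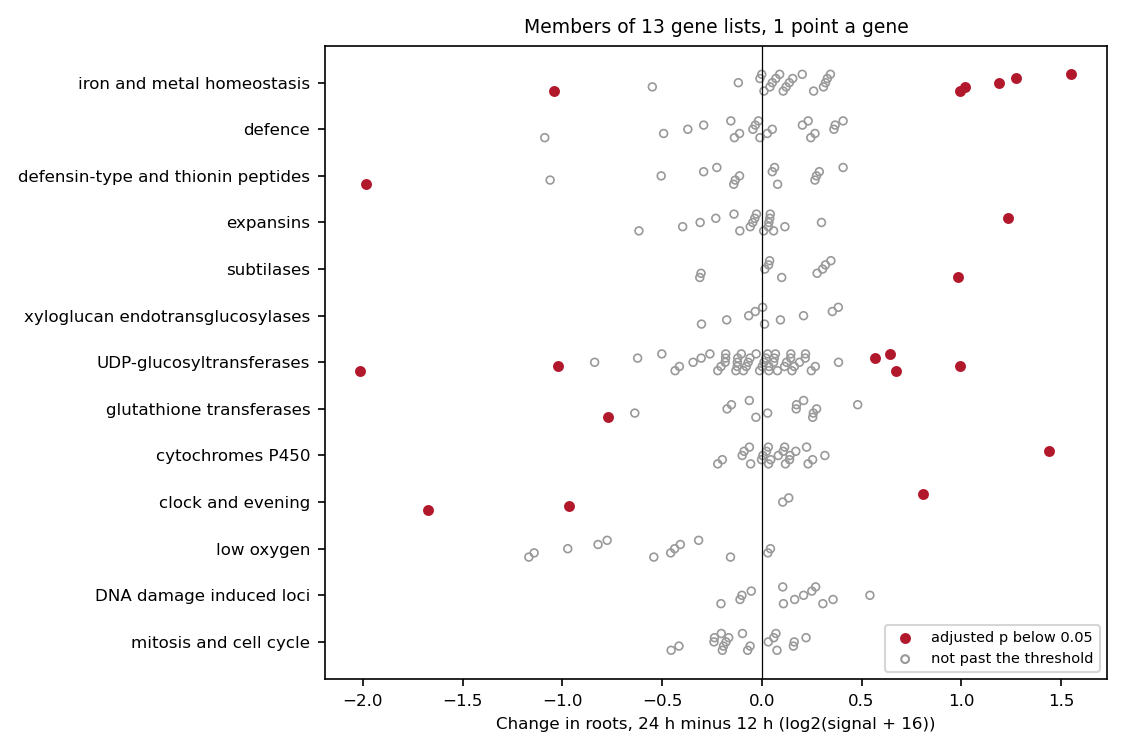
Change from 12 h to 24 h in roots (x axis, difference of log2(signal + 16)) of the measured members of 13 gene lists, 1 point a gene, filled where the adjusted p was below 0.05. In the iron and metal list 5 filled points lie to the right and 1 to the left, while the defence, xyloglucan, low oxygen, DNA damage and mitosis lists hold no filled point.

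Genes of iron and metal handling were among the late rises. Of 25 measured members of the list, 5 were higher at 24 h and 1 was lower, against 0.805% and 0.504% of all genes. The list median was 0.14, beside -0.0011 over all genes. Because the list was chosen with earlier results of these data known, these counts are a description and no independent evidence. At an unadjusted p below 0.05, 10 members were higher and 1 lower, beside 5.28% and 5.01% of all genes. The 5 became 4 without the first 24 h array and 2 without any other array of these times, and the 1 fall stayed at 1. With root arrays alone in the fit 3 were higher and 1 lower, and with the 4 arrays alone none passed, where AT1G74770 and AT3G07720, next described, had adjusted p-values of 0.155 and 0.154. AT1G74770, listed for iron, had signals of 158 and 200 at 12 h and of 347 and 520 at 24 h. Its arrays did not overlap, and the level had lain between 88.3 and 114 in all 8 arrays of 0.5 to 6 h. The change was 1.19 ± 0.16 (adjusted p = 0.000429), past the threshold with any 1 array left out. AT3G07720, of the same list, stood at 168 and 164 at 12 h and at 291 and 427 at 24 h. It rose by 1.02 ± 0.14 (adjusted p = 0.000596) after a flat course of 124 to 147 in the arrays up to 6 h.

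Both dim members that rose differed between the 24 h arrays. AT3G12900 read 9.9 and 10.5 at 12 h, then 27.9 and 118 at 24 h, a change of 1.55 ± 0.32 (adjusted p = 0.0143). AT3G58060 read 12.5 and 13.5, then 35.4 and 79.4, a change of 1.27 ± 0.26 (adjusted p = 0.0126). Both arrays of 24 h lay above both of 12 h in each case, but the second was the higher one throughout. Without that array the changes were 0.745 and 0.827, and both calls were lost then and without either 12 h array. They were 2.36 and 1.72 without the first 24 h array.

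UGT72E1 (AT3G50740), a glucosyltransferase of lignin precursors on the iron list as well, went from 285 and 324 to 544 and 710. Its rise of 0.99 ± 0.23 (adjusted p = 0.0341) did not pass with any 1 of the arrays omitted (0.806 to 1.18). LPR1 (AT1G23010), a multicopper oxidase that oxidises iron in the root tip, went the other way. It climbed from 53 and 39.9 at 0.5 h to 153 and 170 at 12 h and stood at 75.4 and 65.3 at 24 h. It fell by 1.04 on the log2 scale (SE 0.13, adjusted p = 0.000221), a call that held with any 1 array left out. AT1G47400 did not pass, because its 24 h arrays read 34.5 and 109 beside 106 and 95.1 at 12 h (-0.55 ± 0.56). Of the regulators, PYE (AT3G47640), a repressor of iron genes, had a change of 0.01 ± 0.15, and its bHLH partner ILR3 (AT5G54680) had a change of 0.26 ± 0.12 that did not pass.

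**Figure D2:**
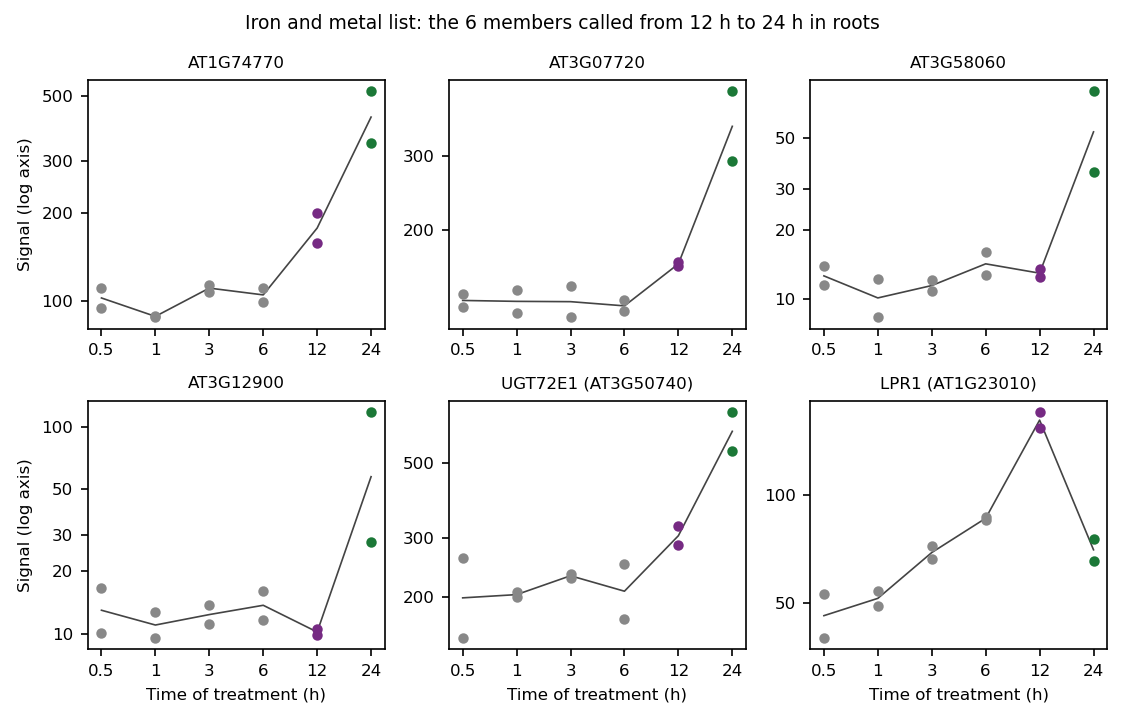
Signal of the 6 called members of the iron and metal list in each of the 12 root arrays (log axes that differ between panels, times evenly spaced), with 12 h in purple, 24 h in green, and a line through the geometric means. AT1G74770, AT3G07720, AT3G58060, AT3G12900 and UGT72E1 are highest at 24 h, and LPR1 is highest at 12 h.

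Defence genes showed no call in this interval. Of 20 measured members of the defence list none passed in either direction in limma, and at an unadjusted p below 0.05 none was higher and 1 was lower, with a median of -0.01. From 0.5 h to 12 h, 5 members were higher (4.46% of all genes were) and 15 did not pass, with a list median of 0.09, and without the first 12 h array 1 member was higher. From 0.5 h to 24 h, 5 members were higher (5.61%), and the number was 3 to 7 with 1 of the 4 later arrays left out. AT5G38910 stood at 114 and 62.2 at 0.5 h, 507 and 770 at 6 h, 1290 and 926 at 12 h, and 312 and 814 at 24 h. Both 24 h arrays lay below both 12 h arrays, but at a change of -1.09 ± 0.38 the adjusted p was 0.222. It passed without the second 24 h array only (-1.76).

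The first 12 h array carried the high values of other defence members. AT1G26380 had 826 in it and 59.3 in the second, beside 130 and 244 at 24 h. AT2G15220, whose probes are marked by the maker as shared by several transcripts, had 939 and 310 beside 731 and 678. Without the first 12 h array their changes to 24 h became 1.37 and 1.14, and without the second -2.11 and -0.41, so the sign turned with the array. Over the whole list no call appeared without the first 12 h array or the first 24 h array, and 1 fall appeared without the second array of either time.

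Among defensin-type and thionin peptides, small secreted proteins many of which act against microbes, 1 of 15 was lower (0.504% of all genes were) and none higher. PDF2.1 (AT2G02120) had risen from 84.5 and 70 at 0.5 h to 431 and 624 at 6 h, stood at 377 and 269 at 12 h, and returned to 77.1 and 60.9 at 24 h. The fall of 1.98 (SE 0.19, adjusted p = 4.86e-06) was 3.96-fold and held with any 1 array left out. LCR69 (AT2G02100), also of this family, went from 1030 and 1070 to 566 and 432 without passing (-1.06 ± 0.26, adjusted p = 0.0524). PDF1.2 (AT5G44420), a marker of jasmonate and ethylene signalling, was dim at both times, at 9.29 and 12.8 and then 6.17 and 5.9. None of 7 WRKY transcription factors passed, and at an unadjusted p below 0.05 only 1 of them was higher.

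Cell wall genes moved singly. Of 19 expansins 1 was higher (0.805% of all genes were) and none lower, while 1 was higher and 2 lower at an unadjusted p below 0.05. EXPB2 (AT1G65680), a beta-expansin, read 98.2 and 61.4 at 0.5 h, 20.4 and 27.3 at 12 h, and 68.3 and 88 at 24 h. The rise of 1.24 ± 0.25 (adjusted p = 0.0115) brought it back to its 0.5 h level, from which it differed by -0.01 ± 0.25. That call was lost without the first 12 h array (1.11) and without the second 24 h array (1.09). The subtilisin-like protease ATSBT5.2 (AT1G20160) also fell and rose again. It read 125 and 122 at 0.5 h, 43.7 and 29.5 at 12 h and 99.1 and 76 at 24 h. Both of its 24 h arrays remained below both of 0.5 h. ATSBT5.2 was the only call among 11 subtilases, of which 3 were higher and none lower at an unadjusted p below 0.05 (5.28% and 5.01% of all genes). The rise was 0.98 ± 0.20 (adjusted p = 0.0159), lost without the second 12 h array (0.785) or the first 24 h array (0.82).

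No member passed among 10 xyloglucan endotransglucosylases, 15 cellulases of glycosyl hydrolase family 9, 23 trichome birefringence-like acetyltransferases, 5 pectin methylesterases, 7 class III peroxidases, 8 cellulose synthase-like genes and 4 jacalin lectins. At an unadjusted p below 0.05 these lists held 0, 1, 3, 0, 1, 0 and 1 higher and 0, 0, 3, 0, 1, 0 and 0 lower members. Medians in these lists ran from -0.07 to 0.07, except 0.22 for the lectins. XTH18 (AT4G30280), which cuts and rejoins xyloglucan chains, had fallen earlier, from 219 and 273 to 122 and 85.3, and stood at 129 and 141 at 24 h.

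Detoxification genes changed in both directions. UDP-glucosyltransferases move glucose onto phenolics, hormones and foreign compounds. They were found by symbol or synonym, so family members known here by locus alone were not counted. Of 52 found, 4 were higher (0.805% of all genes were) and 2 lower (0.504%). The 4 include UGT72E1, which was counted in the iron list as well. At an unadjusted p below 0.05 the balance was the other way, with 5 higher and 9 lower. With any 1 array left out 1 was higher and 2 to 4 were lower. Of 24 cytochromes P450 1 was higher, and of 14 glutathione transferases 1 was lower, while 3 were higher and 2 lower at an unadjusted p below 0.05. CYP71B26 (AT3G26290) was the sharpest of the rises, from 45.9 and 57 at 12 h to 176 and 157 at 24 h (1.44 ± 0.14, adjusted p = 6.58e-06). It had declined from 131 and 124 at 0.5 h, so that 24 h stood 0.35 ± 0.14 above 0.5 h, a difference that did not pass. The change held with any 1 array left out. At an unadjusted p below 0.05, 3 P450 genes were higher and none lower.

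UGT76D1 (AT2G26480) read 62 and 69 at 12 h and 108 and 119 at 24 h, a rise of 0.67 ± 0.11 (adjusted p = 0.00168) that held with any 1 array left out. It had also been high at 3 h, at 177 and 181. UGT88A1 (AT3G16520, 0.64 ± 0.15) and UGT85A2 (AT1G22360, 0.57 ± 0.13) rose with adjusted p-values of 0.0292 and 0.0341, and both lost their calls whichever array was left out, over ranges of 0.519 to 0.763 and 0.533 to 0.603. ATGSTF13 (AT3G62760), a glutathione transferase of the phi class, fell step by step. It stood at 78 and 59.3 at 0.5 h, 30.7 and 34.9 at 12 h and 12.8 and 12.4 at 24 h. The last step of -0.77 ± 0.18 (adjusted p = 0.0298) was also lost whichever array was left out (-0.832 to -0.709).

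CHIL (AT5G05270), a chalcone isomerase-like protein that aids flavonoid synthesis, read 131 and 128 at 0.5 h, 361 and 415 at 12 h and 84.9 and 83.7 at 24 h. It fell 4.02-fold (-2.01 ± 0.16, adjusted p = 8.02e-07) to below its 0.5 h level (-0.54 ± 0.16, adjusted p = 0.0365). UGT78D2 (AT5G17050), which puts glucose on flavonols and anthocyanidins, had 94.1 and 89.7, then 263 and 309, then 134 and 131, and fell by 1.02 on the log2 scale (SE 0.13, adjusted p = 0.000123). Both calls of these flavonoid genes held with any 1 array left out.

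UGT84A1 (AT4G15480), a glucosyltransferase of hydroxycinnamic acids, was near the lower end of the scale at 0.5 h with 1.15 and 1.75. It reached 52.2 and 57.8 at 12 h and was down to 2.19 and 1.02 at 24 h. On the log2(signal + 16) scale it fell by 2.01 (SE 0.11, adjusted p = 1.07e-08), and detection calls were not used, so the low values may be background. UF3GT (AT5G54060), a glycosyltransferase of anthocyanins, followed the same course without passing, at 65.3 and 51.5 and then 25.6 and 25.3 (-0.84 ± 0.21, adjusted p = 0.0574).

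PDC2 (AT5G54960), a pyruvate decarboxylase of ethanol fermentation, stood at 166 and 216 at 0.5 h, 495 and 425 at 12 h and 77.2 and 115 at 24 h. The fall was 4.29-fold (-2.10 ± 0.31, adjusted p = 0.000952) and held with any 1 array left out. PDC2 was not on the low oxygen list. The 13 measured genes of that list had a median change of -0.46 from 12 h to 24 h, but none passed in limma. At an unadjusted p below 0.05, 2 of them were lower and none higher. The list median was also -0.46 from 0.5 h to 12 h, so the list as a whole did not share the earlier rise of PDC2. Its arrays were uneven, with a median difference of first minus second array of 0.25 at 12 h and -0.53 at 24 h. AT3G10040 stood at 172 and 104 at 12 h and 39 and 68.3 at 24 h (-1.14 ± 0.42, adjusted p = 0.264), and AT4G24110 at 157 and 90.4 and then 43.8 and 45 (-1.17 ± 0.47, adjusted p = 0.323). In both the first 12 h array was the higher one, and without it the changes were -0.821 and -0.818.

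AT2G23910 had the most negative change of the named genes on this scale, from 192 and 237 to 16.8 and 14.1 (-2.87 ± 0.14, adjusted p = 1.24e-09), having started at 22.6 and 22.5. With 64 in place of 16 it was -1.80, still the most negative, and with 1 it was -3.71, behind UGT84A1 at -4.46. Of the 12 largest falls, 8 returned in this way to a level at 24 h that did not pass against 0.5 h after a rise by 12 h. Besides AT2G23910, UGT84A1, PDC2 and PDF2.1 these were AT4G33980 (-1.67), AT2G21130 (-1.30), AT1G68500 (-1.22) and AT2G38465 (-1.20). The other falls were those of CHIL, AT2G22590 (-2.10), AT5G62210 (-1.79) and AT3G15640, which read 453 and 507 at 12 h and 219 and 227 at 24 h (-1.05 ± 0.15, adjusted p = 0.000687). The call of AT5G62210 was lost whichever array was left out, and the other 11 held in all 4 fits.

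**Figure D3:**
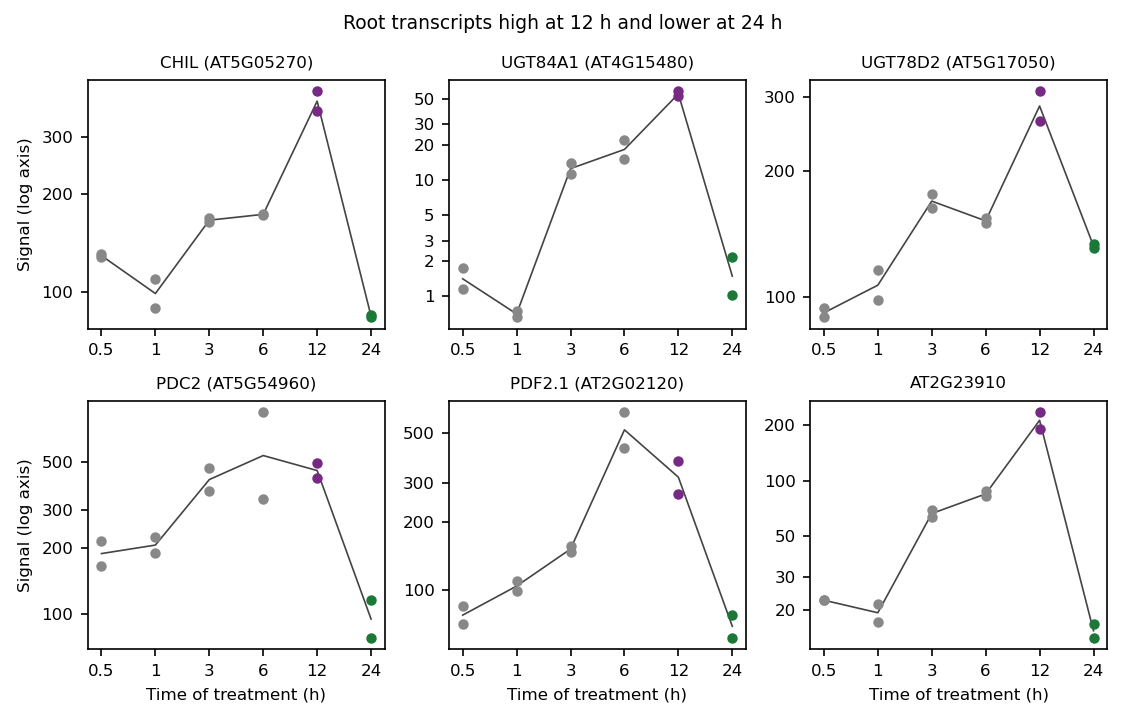
Signal of 6 genes that fell from 12 h to 24 h, in each of the 12 root arrays (log axes that differ between panels, times evenly spaced, 12 h in purple, 24 h in green, line through geometric means). All 6 were higher at 12 h than at 0.5 h, and both 24 h arrays lie below both 12 h arrays in each.

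Of 5 measured genes of the clock and evening list 1 was higher (0.805% of all genes were) and 2 were lower (0.504%) at 24 h. GI (AT1G22770), a clock component with an afternoon peak in untreated plants, read 143 and 162 at 0.5 h, 289 and 304 at 3 h, 108 and 103 at 12 h and 214 and 180 at 24 h. The rise of 0.81 ± 0.18 (adjusted p = 0.0298) was lost whichever array was left out (0.693 to 0.923). COR27 (AT5G42900), a cold-regulated repressor in the clock, had 45.7 and 35.9 at 6 h, 17.8 and 18.6 at 12 h and 2.3 and 0.728 at 24 h. It fell by 0.97 (SE 0.15, adjusted p = 0.00121), and the call held with any 1 array left out. AT4G33980 followed the same course, from 99.1 and 61.4 at 6 h to 4.07 and 3.73 at 24 h.

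COR47 (AT1G20440), a dehydrin, was the other call among 13 cold and dehydration genes, which held 2 lower and no higher members (0.504% and 0.805% of all genes). It went from 931 and 995 at 12 h to 641 and 467 at 24 h (-0.80 ± 0.18, adjusted p = 0.0292), a call kept only without the first 24 h array (-1.02). None of 11 genes of carbon starvation passed, nor did any at an unadjusted p below 0.05. Of 11 autophagy genes 1 was lower, ATG8D (AT2G05630), from 176 and 177 to 135 and 105 (-0.51 ± 0.11, adjusted p = 0.0236), also kept only without the first 24 h array (-0.67).

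Other lists held no call in limma. Of 69 genes of the plastid genome none passed, with a median of -0.25. At an unadjusted p below 0.05 none was higher and 15 were lower, beside 5.28% and 5.01% of all genes. The paired arrays differed by nearly as much over this list, with a median of first minus second array of 0.2 at 12 h and -0.18 at 24 h. Likewise none passed of 22 beta-glucosidases, 17 auxin genes, 16 SWEET sugar transporters, 8 aldehyde dehydrogenases, 8 calmodulin-like genes and 7 alternative dehydrogenases and redox genes. At an unadjusted p below 0.05 these had 3, 3, 3, 0, 0 and 0 higher and 1, 2, 0, 0, 0 and 0 lower members, and their medians lay between -0.02 and 0.02.

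AT1G73120 read 8.15 and 6.09 at 12 h and 119 and 124 at 24 h, above 10.7 and 44.4 at 0.5 h. Its rise was 2.58 ± 0.28 (adjusted p = 3.41e-05). OCT1 (AT1G73220), a transporter of carnitine and organic cations, had 42.1 and 34.1 at 0.5 h, 0.638 to 13.5 in the arrays from 1 h to 12 h, and 149 and 81.4 at 24 h. It rose by 2.31 ± 0.21 (adjusted p = 2.83e-06). Without detection calls the 12 h signals of both genes may be background, and the added constant sets the size: with 1 in place of 16 the rises were 3.93 and 3.39, and with 64 they were 1.39 and 1.26, past the threshold each time. AT5G15950 read 34 and 28.9 at 12 h and 202 and 179 at 24 h (2.12 ± 0.17, adjusted p = 8.02e-07), with 89.4 and 127 at 1 h. The groups of 12 h and 24 h did not overlap in any of the 3, and the calls held with any 1 array left out.

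AT3G16800, the largest rise of a named gene at 64 (1.75), had declined from 259 and 378 at 0.5 h to 73.7 and 85.5 at 12 h and stood at 442 and 398 at 24 h (2.19 ± 0.17, adjusted p = 7.17e-07). The other large rises were AT5G48540 (1.56), AT1G69570 (1.54), AT3G13040 (1.50), AT1G62510 (1.36), AT4G33550 (1.33) and AT4G00910 (1.29). Of the 12 largest, 8 calls held with any 1 array left out, 6 were late rises and 4 were returns. AT4G33550 and AT1G62510 lost their calls without the first array of either time, over ranges of 0.765 to 1.89 and 1.03 to 1.70. AT5G48540 lost its call without the second 12 h array (0.911), which read 75.7 beside 209 in the first, and without the first 24 h array.

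Against these stood genes that had changed early and were already at their 24 h level by 12 h. To count here, a gene had to pass between 0.5 h and 12 h with at least a 2-fold change. The 95% confidence interval of its change from 12 h to 24 h also had to lie within 1.5-fold either way. Both folds are of the signal plus the added constant, so for dim transcripts the margin is wider in the signal itself. Because the comparisons share arrays, the counts only describe these libraries. Between 0.5 h and 12 h 9.66% of probe sets passed, or 8.54% of genes. Of 481 probe sets with a 2-fold early change, 166 (0.73% of all) met the rule, 75 risen and 91 fallen, and 92 changed again between 12 h and 24 h. Over genes, 82 of 217 met it (0.617% of all), 34 risen and 48 fallen. The interval lay within 1.5-fold on the same scale for 80.7% of all probe sets and 82.5% of all genes. Each array left out brought the 166 down, to between 86 and 110. Just inside the limit stood AT1G05575 and AT2G16980, whose intervals reached 1.4854-fold and 1.4883-fold, and just outside the subtilase ARA12 at 1.5003-fold and AT3G55300 at 1.5092-fold.

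Late rises, which passed from 12 h to 24 h and from 0.5 h to 24 h in the same direction, numbered 91 probe sets or 48 genes, and late falls 47 or 21. Returns numbered 89 probe sets or 37 genes by a rise and 65 or 32 by a fall. Another 80 called probe sets, or 36 genes, belonged to none of these classes. Late rises numbered 44 to 101 probe sets and late falls 14 to 60 with 1 of the 4 arrays left out. The times that played no part in these definitions, 1 h, 3 h and 6 h, show when the early genes moved. Of the 34 settled rises, 2 stood at least 2-fold above 0.5 h at 1 h and 20 at 3 h. Their mean was within 1.5-fold of the 24 h mean in 11 genes at 1 h, 24 at 3 h and 30 at 6 h. Of the 48 settled falls, 10 were within it at 1 h, 33 at 3 h and 42 at 6 h.

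**Figure D4:**
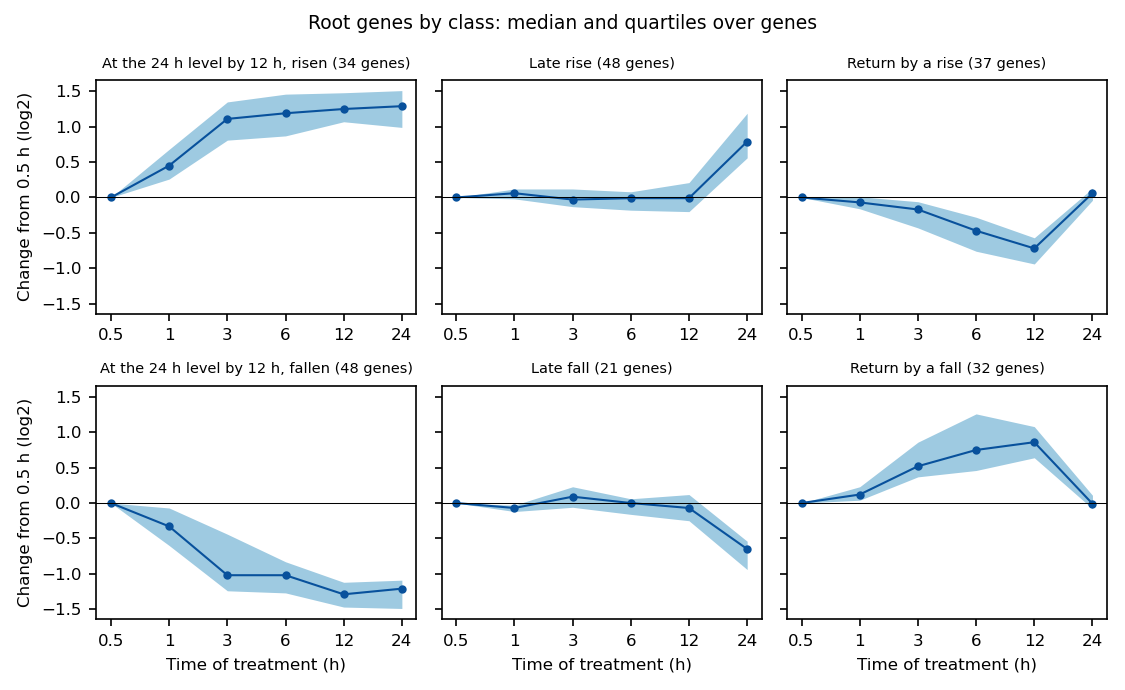
Change from 0.5 h in roots (y axis, log2(signal + 16)) at each time (evenly spaced), as the median over the genes of a class (line) with its quartiles (band). Values at 0.5 h, 12 h and 24 h follow from how the classes were defined; at 3 h the settled rises are at a median of 1.11 and the late rises at -0.03.

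Genes known to respond to DNA damage had moved before 12 h. None of 13 measured damage-induced loci passed between 12 h and 24 h in limma, with 1 higher and none lower at an unadjusted p below 0.05 and a median change of 0.16. By contrast, 12 of the 13 were higher at 12 h than at 0.5 h (4.46% of all genes were) and 11 at 24 h (5.61%), with medians of 1.54 and 1.53. Only 6 of the 13 had an interval from 12 h to 24 h within 1.5-fold, beside 82.5% of all genes. A level course is therefore not shown for the other members of the list. Published work on these very arrays may have shaped the list, and its direction is then no independent evidence. AT4G22960 read 35.5 and 31.1 at 0.5 h, 226 and 169 at 3 h, 302 and 317 at 12 h and 347 and 322 at 24 h. From 12 h to 24 h it changed by 0.10 ± 0.19, with a 95% interval of -0.30 to 0.51, after a rise of 2.73 ± 0.19.

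Of the list, AT2G47680, AT3G42860 and AT2G45460 were settled as well. ATMND1 (AT4G29170), whose yeast relative acts in meiotic recombination, read 17.5 and 18.4 at 0.5 h, 127 and 102 at 3 h, 93.7 and 112 at 12 h and 84.9 and 88.9 at 24 h. AT5G60250 was the member furthest from level. It went from 180 and 194 to 313 and 250 without passing (0.54 ± 0.17, adjusted p = 0.17). Of 22 genes of DNA repair and recombination none passed either, with 1 higher at an unadjusted p below 0.05, and 21 had an interval within 1.5-fold.

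Other settled rises were AT2G21640, from 24.4 and 29.1 at 0.5 h to 126 and 166 at 12 h and 133 and 151 at 24 h, and AT5G48020, from 289 and 280 to 1120 and 1090 and then 945 and 1080. AT5G67460, AT2G18190 and AT2G23830 completed the 8 largest, with changes from 12 h to 24 h of -0.04, 0.14 and -0.14. Settled rises were 1 of 14 glutathione transferases, 1 of 52 UDP-glucosyltransferases and none of 24 P450 genes, beside 34 of all 13286 genes. GSTU22 (AT1G78340), a glutathione transferase of the tau class, stood at 459 and 452, then 963 and 1290, then 1200 and 994, with a 95% interval of -0.40 to 0.34 for the last step. UGT73B4 (AT2G15490), a glucosyltransferase of phenolics and foreign compounds, stood at 185 and 163, then 421 and 347, then 406 and 326. The expansin EXPA9 (AT5G02260) was settled at 99.9 and 103 and then 78.1 and 132.

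Part of the division genes had fallen by 12 h. None of 19 genes of mitosis and the cell cycle passed from 12 h to 24 h, with none higher and 1 lower at an unadjusted p below 0.05, while 6 were lower at 12 h than at 0.5 h (4.09% of all genes) and 9 at 24 h (6.13%), where 1 was higher. AUR2 (AT2G25880), an Aurora kinase that acts in mitosis, read 95.1 and 99.9 at 0.5 h, 37.4 and 37.9 at 12 h and 24.2 and 35.3 at 24 h (-0.24 ± 0.13). AUR2 met the settled rule, with a 95% interval of -0.52 to 0.04 on the scale with the added constant. The mitotic chromosome protein gene 3xHMG-box1 (AT4G11080) was settled too. 3xHMG-box2 (AT4G23800) was not, at 67.4 and 60.8 and then 42.5 and 45.6, but did not pass (-0.42 ± 0.19, adjusted p = 0.402), nor did the topoisomerase II gene TOPII (AT3G23890) at 59.8 and 51.3 and then 32.8 and 39.7 (-0.45 ± 0.23, adjusted p = 0.493). Of 9 histone genes none passed, nor did any at an unadjusted p below 0.05, and 4 were lower at 12 h than at 0.5 h, a number of 1 without the first 12 h array and 2 without the second.

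Of the 8 largest settled falls, 3 have a gene symbol here. GTR1 (AT3G47960), which carries glucosinolates, read 308 and 398 at 0.5 h, 77 and 83.8 at 12 h and 92.4 and 88.6 at 24 h. It had already reached 81.6 and 82.4 at 3 h. GRX480 (AT1G28480), a glutaredoxin induced by salicylate and by reactive compounds, read 388 and 521, then 118 and 97.9, then 122 and 96.4, and most of its fall lay before 1 h, when it stood at 142 and 132. SWEET16 (AT3G16690), a vacuolar sugar carrier, read 203 and 274, then 57.4 and 65.5, then 61.6 and 72. With AT1G15640, AT1G26730, AT4G29690, AT2G02680 and AT1G66760 they made up the 8 largest, with changes from 12 h to 24 h of -0.04 to 0.14.

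The change from 12 h to 24 h was set against that in shoots, which covered the same hours of day. In shoots 3784 probe sets passed (16.6%), and the change differed between the tissues for 1859 (8.17%). Over genes the difference passed for 902 (6.79%), 485 with the more positive change in roots (3.65%) and 417 in shoots (3.14%). OCT1, which rose in roots, was near the bottom of the scale in shoots, at 0.301 and 0.26 and then 0.459 and 0.854, with a difference of 2.28 ± 0.29 (adjusted p = 6.58e-05). AT1G74770 was dim in shoots, at 21.5 and 21.2 and then 19.9 and 20.5, a difference of 1.24 ± 0.23 (adjusted p = 0.00214). Of the 25 iron and metal genes 7 differed between tissues.

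CHIL and UGT78D2 went opposite ways in the tissues. CHIL rose in shoots from 83.6 and 100 to 109 and 187 (0.57, adjusted p = 0.0214) while it fell in roots, a difference of -2.58 ± 0.23 (adjusted p = 1.33e-06). UGT78D2 rose in shoots from 181 and 190 to 235 and 293 (0.47, adjusted p = 0.0144), a difference of -1.49 ± 0.18 (adjusted p = 2.78e-05). COR27 fell in both, further in shoots, from 116 and 151 to 0.708 and 0.861, so that the difference was 2.18 ± 0.21 (adjusted p = 2.74e-06). At 24 h it was near the bottom of the scale in both tissues. Its 12 h signal was lower in roots, which left less room to fall there. AT2G41250 showed the widest gap among genes called in roots, rising from 74.7 and 69.3 to 141 and 122 there and from 46.3 and 50.7 to 902 and 751 in shoots (-2.96 ± 0.15, adjusted p = 2.8e-09).

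**Figure D5:**
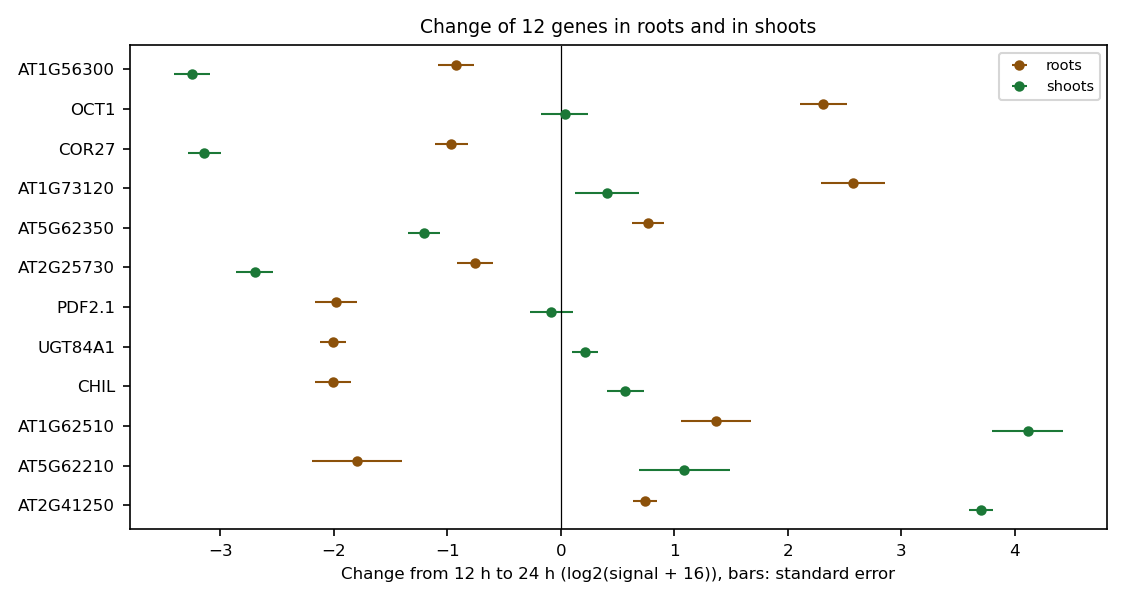
Change from 12 h to 24 h (x axis, difference of log2(signal + 16)) in roots (brown) and shoots (green) for the 6 largest tissue differences each way among genes called in roots, with bars of 1 standard error and groups of 2 arrays. CHIL and AT5G62210 fell in roots and lie above 0 in shoots, while OCT1 (2.31 in roots, 0.03 in shoots) and AT1G73120 (2.58 and 0.41) lie far to the right in roots.

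Markers of leaf cells moved with the comparison in these roots. All 3 measured ones were higher at 24 h at an unadjusted p below 0.05, and RCA (AT2G39730), Rubisco activase, passed at 77.7 and 76.7 and then 145 and 145 (0.79 ± 0.19, adjusted p = 0.0475), a call lost whichever array was left out (0.779 to 0.794). Their summed signal was 237 and 235 in the 12 h roots and 413 and 389 in the 24 h roots, beside 401 and 323 in the 0.5 h roots. In shoots the same sum was higher at 24 h as well, at 9420 and 11700 and then 16100 and 12800. The change from 12 h to 24 h did not differ past the threshold between the tissues for any of the 3 leaf markers. Their part in the other rises was not tested. Neither of 2 measured root markers passed, with a summed signal of 3090 and 3560 and then 3420 and 3590. Among them PYK10 (AT3G09260), a root beta-glucosidase, read 2940 and 3370 and then 3300 and 3410. Both root hair expansins, EXPA7 and EXPA18, stayed short of the threshold too (-0.11 ± 0.19 and 0.04 ± 0.19). No gene of the endodermis, xylem, phloem, root cap or meristem marker lists was named here.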

How the data were processed

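RNA of roots and shoots was measured on 24 ATH1 arrays. The deposited values are linear signal intensities per probe set, made by the authors with MAS5 per the submitters' processing notes; version, scaling and detection calls are not given in the sources used here. Arrays have no read depth, and their number limits the precision. The 64 control probe sets were left out. Of the other 22746, 13513 carried 1 gene in the platform annotation and 13436 matched a locus of TAIR10.1 (13286 genes, 144 with several probe sets, the one with the highest mean kept), 503 carried several and 8730 were unlisted.

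Signals as log2(signal + 16) went into limma 3.58.1 under R 4.3.3, 1 mean for each of 12 groups over all arrays, with the prior variance following mean signal (residual degrees of freedom 12, prior 4.91). P-values were adjusted by Benjamini and Hochberg over all probe sets of a comparison, with a threshold of 0.05. Python 3.11.15, numpy 2.4.6, pandas 2.3.3 and matplotlib 3.10.9 made tables and figures. In a test on simulated data for this comparison, 50 of 22746 probe sets were changed per fold. Recovered were 46% of 1.5-fold changes, 98% of those of 2-fold and 100% of those of 4-fold, beside 13 calls among unchanged probe sets. The changed probe sets were drawn outside the dimmest 30%, and the simulated noise was independent between arrays and probe sets. These rates therefore do not cover dim transcripts or deviations that many genes of 1 array share.

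The comparison and the lists were chosen with earlier results of these data known. Of 40 lists, 35 held a measured gene. Lists of heat shock, cytosolic ribosome, nitrate and phosphate transport and other transporters were not formed, for want of named genes. Named are the 12 largest rises and falls that passed with arrays on one side, up to 4 passing members of a list, the 8 largest settled rises and falls, and the 6 largest tissue differences each way among genes called in roots. Other members are named to show a role, after their values were seen. Alternatives were pseudocounts of 1 and 64, quantile normalization, median centring, the dimmest 30% or 50% left out, no trend, fewer arrays in the fit, a replicate block, each array left out, 1 h as early time and a 2-fold margin.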

Additional observations from a re-analysis of the deposited data

Results flagged for a closer look

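The change from 12 h to 24 h in roots differed from that in shoots (limma, difference of changes, adjusted p below 0.05) for 34 of the 82 named genes, beside 6.79% of all genes. Many were named for their size of change or for the difference itself, so the share is a description. Each value is the root change minus the shoot change in log2(signal + 16).

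The root change was the more positive for 23. Among metal and detoxification genes these were AT1G74770 (1.24), AT3G58060 (1.56), AT3G07720 (0.79), UGT72E1 (1.13), UGT76D1 (0.70) and UGT85A2 (1.07). Among wall genes they were EXPB2 (1.49) and ARA12 (0.82), and among clock, cold and autophagy genes GI (1.84), COR27 (2.18), AT4G33980 (0.89) and ATG8D (0.61). COR27 was near the bottom of the scale at 24 h in both tissues. Large rises in roots with a smaller change in shoots were those of AT1G73120 (2.17), OCT1 (2.28), AT3G13040 (0.83), AT3G16800 (0.98) and AT4G00910 (1.24). The others were AT1G56300 (2.33), AT2G25730 (1.94), AT5G62350 (1.97) and AT2G21130 (1.02), and the settled genes AT2G47680 (0.89) and AT5G48020 (0.83), which were level in roots and fell in shoots.

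The root change was the more negative for 11. These were the phenolic and flavonoid genes CHIL (-2.58), UGT84A1 (-2.22) and UGT78D2 (-1.49), the defensin gene PDF2.1 (-1.90), ATGSTF13 (-0.94), and AT2G41250 (-2.96), AT5G62210 (-2.88), AT1G62510 (-2.75), AT1G66760 (-1.93), AT2G22590 (-1.82) and AT2G23910 (-0.66).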

How the results depend on the processing

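No named gene changed direction with its call under any alternative that was run. Of 45 named genes called from 12 h to 24 h, 45 kept their calls under both quantile normalizations and median centring, 39 at a pseudocount of 1 and 18 with the 4 arrays fitted alone. That fit called 71 probe sets, 38 higher and 33 lower. With 1 of the 4 arrays left out, when the lone array is assumed to vary like other groups, the count lay between 164 and 335 (94 to 203 higher, 70 to 146 lower), tissue differences between 1257 and 1553, settled probe sets between 86 and 110, late rises between 44 and 101, late falls between 14 and 60 and returns between 75 and 134. The settled count of 166 became 104 at a pseudocount of 1 and again 104 at 64, 105 without the dimmest 50%, 93 with 1 h as the early time and 329 with a 2-fold margin. Late falls rose from 47 to 72 after quantile normalization over all arrays. The cause of these shifts was not tested, beyond the wider margin and fewer arrays or probe sets. Replicate numbers did not pair samples by the labels (r = -0.087 between the deviations at 12 h and 24 h); with a replicate block 347 probe sets changed, and GI, RCA and UGT72E1 lost their calls. Leaving out arrays for the list counts from 0.5 h was chosen after seeing the data. Dim signals limit what can be said of genes near background.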
